A study of Oryza sativa with 2 samples.

Results

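The far end of rice chromosome 11 was taken as the loci with identifiers from LOC_Os11g40000 to LOC_Os11g49999, in the order of their locus numbers. It held 493 loci, out of 2650 on chromosome 11 that were used and 38511 listed in all. The rule left out 4 loci of the same range by name, LOC_Os11g47760, LOC_Os11g47809, LOC_Os11g47970 and LOC_Os11g48110. They were left out of the rest of the chromosome as well. The last listed locus was LOC_Os11g49110. Membership was set by the identifier alone, though the rule was chosen with earlier results of these data known. The rule gives no reason for leaving out the 4 loci.

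Levels came from polyadenylated RNA of 2 libraries, numbered 1 and 2, that form 1 group. Each was made from entire wild-type plants of Nipponbare, the japonica cultivar of the rice reference genome, at an age of 3 weeks. The plants stood in Yoshida nutrient solution under days of 10 h of light, at a photon flux of 800 μmol per square metre and second, and nights of 14 h. No treatment, mutant or pathogen is named in the labels, and they do not say whether separate plants went into each library, so the spread between the libraries may be technical. The labels give no tissue beyond the entire plant, and no marker genes could be matched to check it.

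The region is known for genes of NLR receptors. These intracellular immune receptors combine a nucleotide-binding domain with leucine-rich repeats and sense effector proteins that pathogens deliver into plant cells. Their recognition often ends in the death of the attacked cell, which stops pathogens that need living tissue. NLR genes commonly lie in tandem clusters of related copies that differ between cultivars, and resistance to blast and to bacterial blight has been mapped to the long arm of rice chromosome 11.

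The files pair no identifier with a gene name or a description. The RefSeq gene table supplied for rice, of assembly ASM3414082v1, matched 0 of the 493 far-end identifiers. The share of NLR genes among them was therefore not checked, no role is given to any locus here, and no sequence is shown. Loci are named by identifier, in which the digits after "Os" give the chromosome and the last 5 digits the order along it. Levels are in FPKM, fragments per kilobase of transcript per 1000000 fragments, and are thus per length. The listed values of all loci summed to 670155 FPKM in library 1 versus 651935 FPKM in library 2. Sequencing depth is unknown.

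Most far-end loci were listed at low levels or at 0 in these seedlings. A mean of at least 1 FPKM over both libraries, called expressed from here on, was reached by 155 of the 493 loci, or 31.4%. The same threshold was reached by 38% of the other 2157 loci of chromosome 11 and by 49.8% of all listed loci. Taken in each library on its own, the far-end share was 30.2% in library 1 and 30.0% in library 2 (mean 30.1% ± 0.1, SD, n = 2). The share in the rest of the chromosome was 37.8% in library 1 and 37.6% in library 2 (mean 37.7% ± 0.2, SD, n = 2). The gap was larger than the spread between libraries. That spread comes from measuring identical loci again. Loci are not replicates, and no test of the gap was made. Both libraries reached 1 FPKM at 133 far-end loci, library 1 alone at 16 and library 2 alone at 15.

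The low share went with more loci above 0 but under 1 FPKM, while the share of zeros was close to that of the rest of the chromosome. A value of 0 in both libraries was listed for 196 far-end loci, 39.8%, against 40.8% of the other loci of chromosome 11 and 31.7% of all listed loci. The difference from the rest of the chromosome was 0.66 points in the opposite direction with library 2 left out, so its sign was not stable. Between 0 and 0.1 FPKM stood 9.7% of far-end loci and 6.9% of the rest of the chromosome. Between 0.1 and 1 FPKM stood 19.1% of far-end loci and 14.4% of the rest. The classes from 1 to 100 FPKM were smaller in the far end, at 20.3% against 22.7% for 1 to 10 FPKM and 9.9% against 13.7% for 10 to 100 FPKM. At 100 FPKM or more stood 6 far-end loci, 1.2%, and 35 other loci of chromosome 11, 1.6%. With the 4 left-out loci kept, the far end would have 9 of 497 at this level, 1.8%, so the direction of that difference depends on leaving them out.

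**Figure D1:**
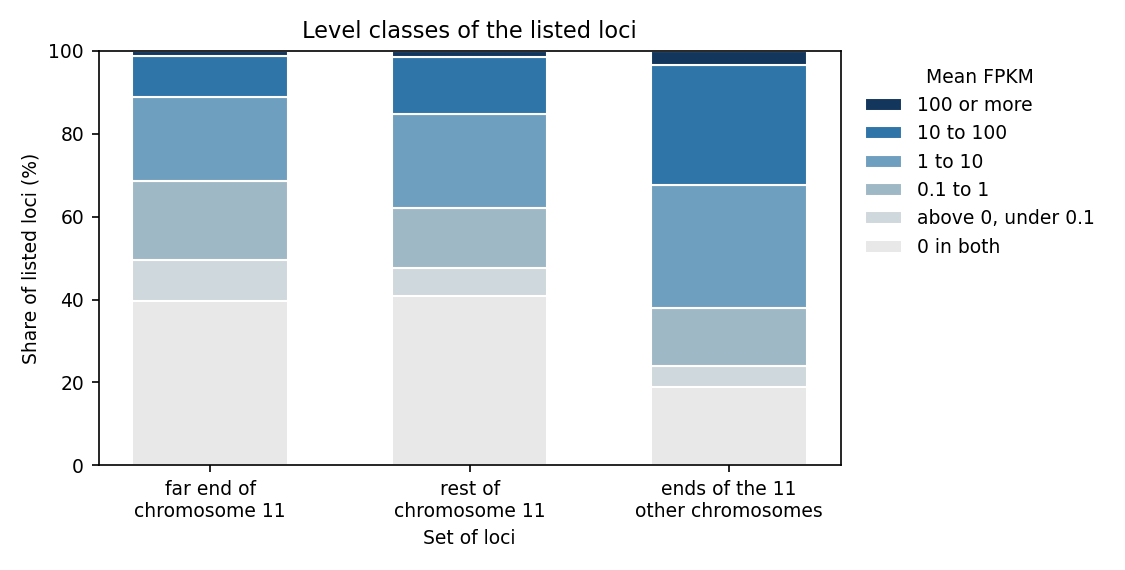
Share of listed loci (y axis, percent) in 6 classes of mean FPKM, for the 493 far-end loci, the other 2157 loci of chromosome 11 and the last 493 loci of each of the 11 other chromosomes. The segments for 0 are alike in the far end (39.8%) and the rest of chromosome 11 (40.8%), and the segments between 0 and 1 FPKM are wider in the far end.

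At the threshold of 1 FPKM, the median level of expressed far-end loci was close to that of expressed loci elsewhere on the chromosome. The median expressed far-end locus stood at 7.82 FPKM in library 1 versus 7.39 FPKM in library 2 (mean 7.61 ± 0.30, SD, n = 2). The median of expressed loci in the rest of chromosome 11 stood at 6.88 FPKM in library 1 versus 7.53 FPKM in library 2 (mean 7.20 ± 0.46, SD, n = 2). The far end was the higher of the pair in library 1 and the lower in library 2, so the difference was within the spread between libraries. The closeness depends on the threshold. The far-end median was below the rest by a log2 difference of -0.03 on the mean of both libraries at 1 FPKM, -0.84 at 0.1 FPKM and -0.25 at 5 FPKM. On the mean of both libraries, the lower and upper quartiles of expressed loci were 2.54 and 14.7 FPKM in the far end and 3.08 and 17.9 FPKM in the rest. Over all 493 loci, those at 0 included, the median was 0.091 FPKM in library 1 versus 0.056 FPKM in library 2, against 0.140 FPKM and 0.118 FPKM in the rest of chromosome 11.

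The ends of the other chromosomes had a different profile. The last 493 listed loci of each were taken for comparison. The share of expressed loci among them ran from 54.8% on chromosome 12 to 68.4% on chromosome 3, so each of the 11 lay above the 31.4% of chromosome 11. On each of those 11 chromosomes the end also had a larger share than the loci before it, by 6.6 percentage points on chromosome 2 and up to 24.1 points on chromosome 10. On chromosome 11 the end was 6.5 points below the loci before it. Zeros in both libraries were listed for 39.8% of far-end loci, against 14.8% to 25.4% at the other ends. The median expressed locus, at a mean of 7.12 FPKM in the far end, was at 7.63 to 12.3 FPKM at the other ends. The 6 far-end loci at 100 FPKM or more compare with 11 to 27 at the other ends. The spread between libraries was at most 1.7 percentage points for the share at any end, and no test over chromosomes was made.

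**Figure D2:**
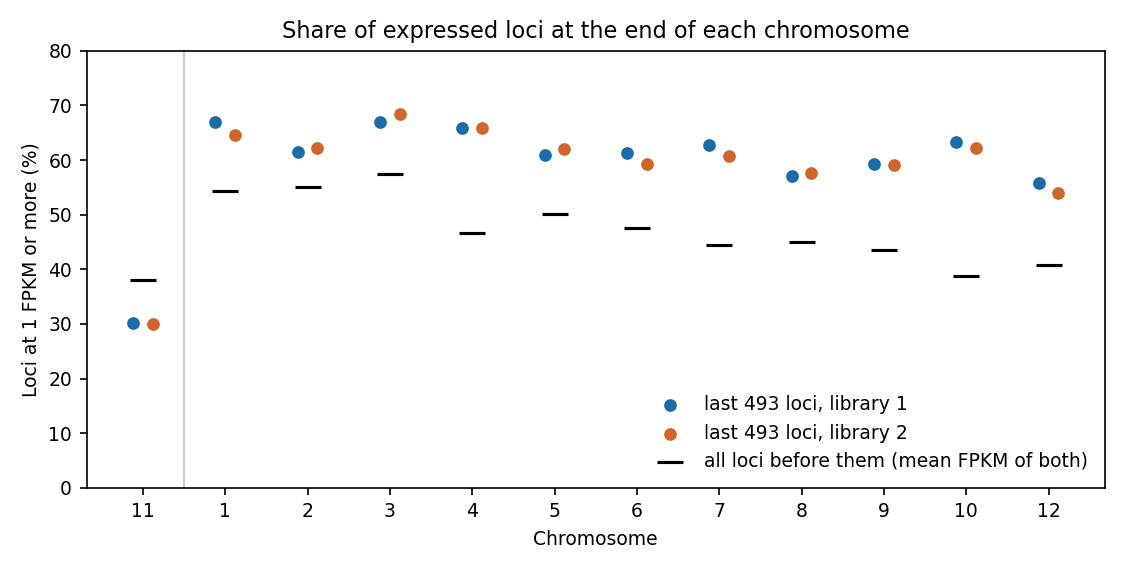
Share of loci at 1 FPKM or more (y axis, percent) among the last 493 listed loci of each chromosome, with 1 point for each library, and a dash for all loci before them on the mean of both libraries. The far end of chromosome 11, at the left, lies at 30.2% and 30.0% and below its dash at 38%, while the points of the other 11 chromosomes lie above their dashes.

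Along chromosome 11 the share of expressed loci was largest at the start. In blocks of 5000 locus numbers it was 51.9% in the lowest block, which includes the start of the chromosome, and 28.4% at numbers 15000 to 19999. It was 33.1% in the block from 35000, just before the far end. The far end made up the last 2 blocks, with 33.2% of 319 loci expressed at 40000 to 44999 and 28.2% of 174 loci from 45000 on. The inner loci, from number 10000 up to the far end, were expressed at 33.9% as a set, a comparison chosen after the values were seen. In single libraries the far end was at 30.2% and 30.0%, and these inner loci were at 33.4% and 33.1%. The far end thus resembled the inner part more than the start, at 46.7% for numbers under 10000. Zeros in both libraries were listed for 39.8% of far-end loci, 45.7% of inner loci and 30.2% of loci at the start.

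**Figure D3:**
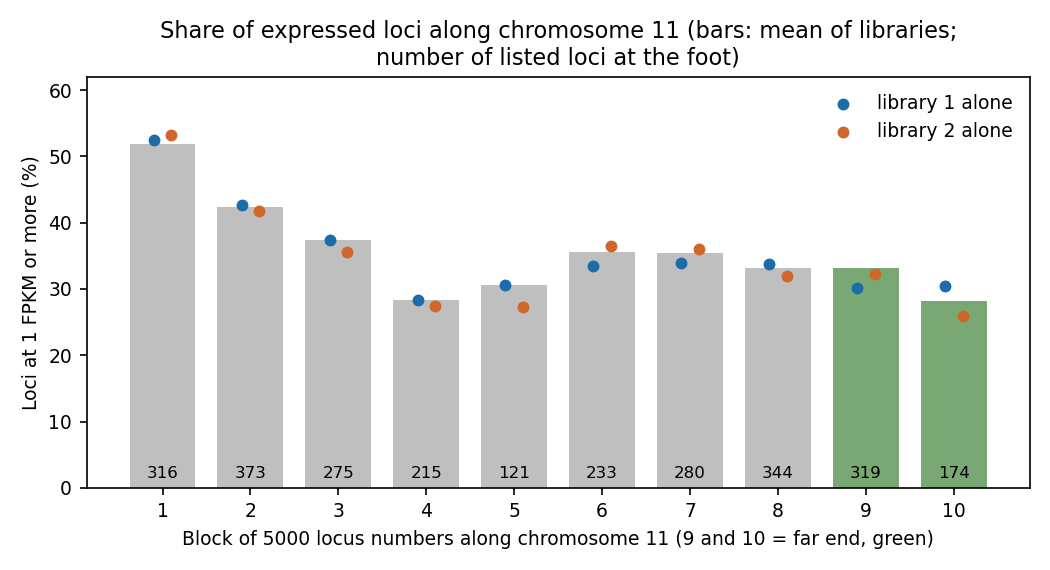
Share of loci at 1 FPKM or more (y axis, percent) in 10 blocks of 5000 locus numbers along chromosome 11. Bars use the mean FPKM of both libraries, points use each library alone, and the figure at the foot is the number of listed loci. The 2 far-end blocks, at 33.2% and 28.2%, lie near the inner blocks and under the 51.9% of the lowest block. A bar can stand above both points because a locus that is high in 1 library can pass on the mean.

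Within the far end, the windows of 1000 locus numbers differed in how many loci they listed and how many were expressed. From 40000 to 42999, 3 windows of 66 to 72 loci were expressed at 31.9% to 33.3%. The window from 43000 had the largest share of the windows with more than 10 loci, with 25 of 59 loci expressed, 42.4%, in library 1 and library 2 alike. It was followed by 14 of 55 in the window from 44000 and 15 of 57 in the window from 45000. The window from 46000 listed 27 loci, the fewest of the 8 windows from 40000 to 47999, where the numbers ran from 27 to 79. In it 4 loci were expressed, 14.8%, in each library and on the mean. The window from 47000 listed 79 loci with 23 expressed. Beyond it 11 loci remained, with 7 of 10 expressed in the window from 48000 and the lone locus of the window from 49000 under 1 FPKM. The 4 loci that the rule left out belonged to the windows from 47000 and 48000, and 3 of them were at 100 FPKM or more.

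In some of these windows 1 locus held most of the summed level. The window from 44000 summed to 1050 FPKM in library 1 versus 1275 FPKM in library 2, and its highest locus held 91.6% of the mean sum. In the windows from 43000 and 42000 the highest locus held 71.6% and 57.0%. In the windows from 40000, 41000, 45000 and 48000 it held less, at 23.6%, 28.6%, 27.9% and 38.3%. The window from 46000 summed to 37.4 FPKM in library 1 versus 24.4 FPKM in library 2, with 53.3% in its highest locus, LOC_Os11g46300. That locus had 17.1 FPKM in library 1 versus 15.9 FPKM in library 2 (16.5 ± 0.9, SD, n = 2). The highest locus of the window from 47000, LOC_Os11g47330, had 55.1 FPKM in library 1 versus 36.8 FPKM in library 2 and held 17.8% of its window. In the window from 48000 LOC_Os11g48020 was highest, with 27.8 FPKM in library 1 versus 32.8 FPKM in library 2. LOC_Os11g49110, the last locus, had 0.117 FPKM in library 1 versus 0.865 FPKM in library 2.

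Consecutive loci under 1 FPKM formed long stretches. Of the 338 loci under 1 FPKM, 86 lay in 6 stretches of at least 10 consecutive listed loci, 25.4%, against 23.6% of such loci in the rest of chromosome 11. The longest stretch ran over 22 loci from LOC_Os11g44960 to LOC_Os11g45220, which together summed to 2.79 FPKM in library 1 versus 1.59 FPKM in library 2. It held 12 loci listed at 0 in both libraries, and its highest locus had a mean of 0.608 FPKM. A stretch of 17 loci from LOC_Os11g41180 to LOC_Os11g41400 summed to 0.449 FPKM in library 1 versus 1.76 FPKM in library 2. A stretch of 15 loci from LOC_Os11g42989 to LOC_Os11g43360 summed to 1.04 and 2.77 FPKM. In the rest of chromosome 11 the longest such stretch held 26 loci.

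Expressed loci stood in shorter stretches. The longest held 5 loci in the far end and 8 in the rest of chromosome 11. The higher of the 2 such stretches in the far end ran from LOC_Os11g41130 to LOC_Os11g41164 and ended directly before the stretch under 1 FPKM that starts at LOC_Os11g41180. Its 5 loci summed to 335 FPKM in library 1 versus 192 FPKM in library 2, and their means ran from 9.24 to 176 FPKM. The other ran from LOC_Os11g45809 to LOC_Os11g45930 and summed to 57.1 FPKM in library 1 versus 56.0 FPKM in library 2. An expressed far-end locus was followed by another in 67 of 155 cases, 43.2%, and a locus under 1 FPKM was followed by an expressed one in 87 of 337 cases, 25.8%. In the rest of chromosome 11 these shares were 48.7% and 31.4%. Levels of neighbouring loci had a Spearman's rho of 0.16 over 492 far-end pairs and 0.24 over 2156 pairs in the rest. For loci 2 apart it was -0.01 in the far end and 0.15 in the rest. These values describe neighbours that share library and depth, and many of the levels are tied at 0.

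**Figure D4:**
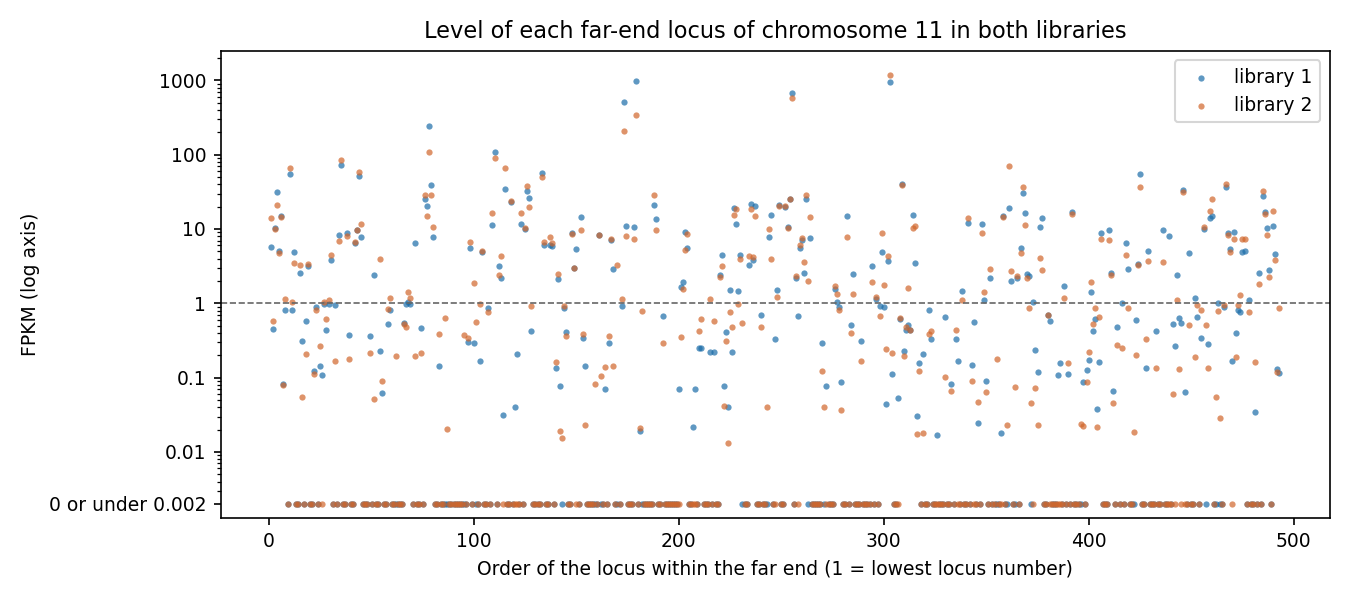
FPKM of each of the 493 far-end loci (y axis, log scale) in order of locus number (x axis), with 1 point for each library, and the threshold of 1 FPKM as a dashed line. Values of 0 and under 0.002 FPKM are drawn on the lowest line. Few loci lie above 100 FPKM, and points on the lowest line occur all along the region.

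The 6 loci at 100 FPKM or more held 67.6% of the far end's summed FPKM in library 1 and 59.5% in library 2 (mean 63.5% ± 5.7, SD, n = 2). LOC_Os11g44810 had the highest mean, with 951 FPKM in library 1 versus 1178 FPKM in library 2 (1064 ± 161, SD, n = 2), at rank 55 of all listed loci on the mean. LOC_Os11g42550 followed with 989 FPKM in library 1 versus 339 FPKM in library 2 (664 ± 460, SD, n = 2). LOC_Os11g43900 had 669 FPKM in library 1 versus 583 FPKM in library 2 (626 ± 61, SD, n = 2). The spread of LOC_Os11g42550 covered the means of LOC_Os11g44810 and LOC_Os11g43900 at 1 SD. Library 1 alone put LOC_Os11g42550 above LOC_Os11g44810 and library 2 alone put LOC_Os11g43900 above LOC_Os11g42550. The place of LOC_Os11g42550 among these 3 loci was therefore not set beyond replicate error. LOC_Os11g44810 was above LOC_Os11g43900 in both libraries. These 3 loci ranked 55, 79 and 83 among all listed loci and held 50.8% of the far end's summed FPKM in library 1 and 49.8% in library 2.

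LOC_Os11g42500 had 507 FPKM in library 1 versus 208 FPKM in library 2 (357 ± 211, SD, n = 2). It lies near LOC_Os11g42550, with 5 listed loci between them. The nearest of these on either side, LOC_Os11g42510 and LOC_Os11g42540, had means of 9.44 and 8.87 FPKM, and the 3 in the middle were listed at 0 in both libraries. LOC_Os11g41150 had 242 FPKM in library 1 versus 110 FPKM in library 2 (176 ± 93, SD, n = 2) and lies inside the expressed stretch of 5 loci. LOC_Os11g41610 had 110 FPKM in library 1 versus 90.8 FPKM in library 2 (100 ± 14, SD, n = 2).

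The next 4 loci differed little between the libraries. LOC_Os11g40510 had 71.7 FPKM in library 1 versus 83.8 FPKM in library 2. LOC_Os11g40140 had 55.0 and 65.5 FPKM, and LOC_Os11g40600 had 51.8 and 59.0 FPKM. LOC_Os11g41990 had 56.9 FPKM in library 1 versus 49.6 FPKM in library 2. Their means ran from 53.3 to 77.8 FPKM, and each library pair was within 1.2-fold. The 10 highest far-end loci had locus numbers from 40140 to 44810, so 0 of them lay in the upper range from 45000 on, where the highest was LOC_Os11g47330. The 4 left-out loci are all numbered above 45000, and 3 of them were at 100 FPKM or more and would be among the 10 highest, so this holds for the loci that the rule keeps.

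With the 4 loci left out, the far end held less of the chromosome's signal than of its loci. It made up 18.6% of the loci used on chromosome 11 and held 14.0% of their summed FPKM in library 1 and 12.5% in library 2 (mean 13.3% ± 1.1, SD, n = 2). Without the 5 highest loci of the far end and the 5 highest of the rest, the share was 8.5% in library 1 and 8.6% in library 2. With the 4 left-out loci kept, it was 18.1%, because 3 of them were at 100 FPKM or more.

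A difference between the libraries was found at a minority of far-end loci. Of the 155 expressed loci, 20 were at least 2-fold apart on the scale of log2(FPKM + 1), or 12.9%, against 6.75% of all expressed loci and 7.3% of those in the rest of chromosome 11. With 1 library on each side there is no test, and the percentages describe these 2 libraries. Library 1 was the higher one at 14 of the 20, which is 9.0% of expressed far-end loci against 3.49% of all expressed loci. Library 2 was higher at 6, or 3.9% against 3.26%. The far-end share was also above the rest of the chromosome with a filter at 5 FPKM, at 10 loci or 10.8% against 6.8%. The median expressed locus had a log2 ratio, library 1 over library 2, of 0.02 in the far end and -0.02 in the rest of the chromosome, so the median locus was at nearly the same level in both libraries. Pearson's r between libraries over expressed loci was 0.91 in the far end and 0.94 in the rest. It is across loci, which are not independent replicates.

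Of the 6 loci at 100 FPKM or more, 3 were at least 2-fold higher in library 1, namely LOC_Os11g42550, LOC_Os11g42500 and LOC_Os11g41150, with log2 ratios of 1.54, 1.28 and 1.13. Among all loci at 100 FPKM or more, 4.21% were 2-fold higher in library 1, and 0 of the 35 in the rest of chromosome 11. The far end summed to 5134 FPKM in library 1 versus 4217 FPKM in library 2 (ratio 1.22), and the rest of the chromosome had a ratio of 1.07. Without these 3 loci it summed to 3395 FPKM in library 1 versus 3560 FPKM in library 2 (ratio 0.95). The loci removed were picked for being higher in library 1, so a lower ratio follows from that choice, and no like removal was made elsewhere.

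**Figure D5:**
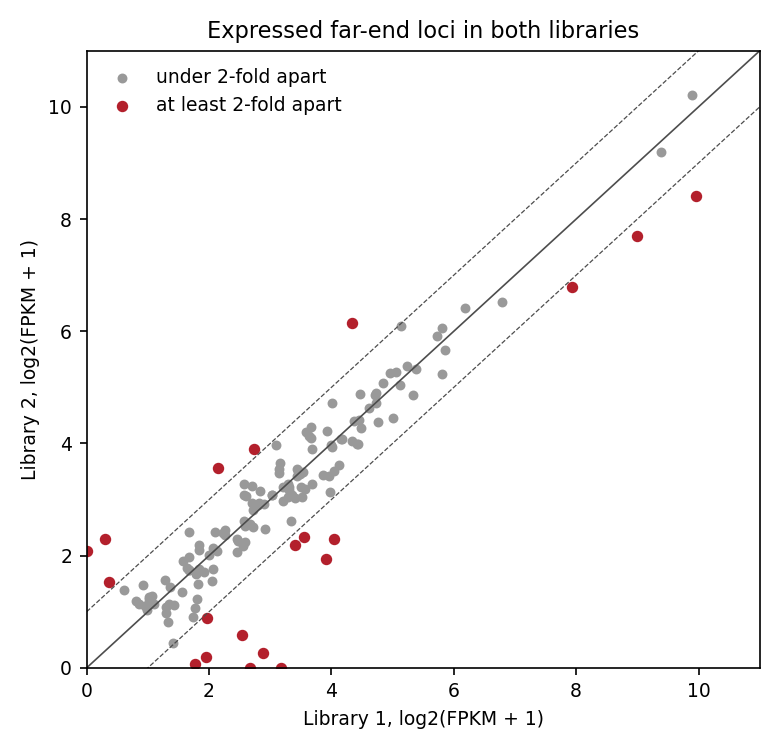
Level of the 155 expressed far-end loci in library 1 (x axis) and library 2 (y axis), each as log2(FPKM + 1), with lines of equal level and of a 2-fold difference. The 20 loci at least 2-fold apart are in red, 14 of them on the side of library 1, including 3 of the 6 loci at 100 FPKM or more.

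Most of the loci 2-fold apart were low, as were most expressed far-end loci. Of the 20, 16 had a mean under 10 FPKM, against 100 of all 155 expressed far-end loci. A value of 0 in 1 library was listed for 2 of the 20. At a mean of at least 5 FPKM, LOC_Os11g46000 had the highest ratio, with 14.1 FPKM in library 1 versus 2.81 FPKM in library 2 (log2 ratio 1.99.) LOC_Os11g43760 followed with 15.5 FPKM in library 1 versus 3.90 FPKM in library 2 (log2 ratio 1.76.) In the opposite direction, LOC_Os11g45740 had 19.2 FPKM in library 1 versus 69.8 FPKM in library 2 (log2 ratio -1.81.) It was the highest locus of the window from 45000. LOC_Os11g44950, directly before the longest stretch under 1 FPKM, had 3.45 FPKM in library 1 versus 10.8 FPKM in library 2 (log2 ratio -1.41.) Each expressed locus was also paired with the next expressed one, skipping any loci under 1 FPKM between them, which gave 154 pairs. Not all of these are direct neighbours. In 2 pairs both loci were 2-fold higher in library 1, in 0 both were higher in library 2 and 2 pairs were apart in opposite directions. The 3 high loci were not among these pairs.

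A value of 0 in 1 library only was listed for 47 far-end loci, 9.5%, against 7.2% in the rest of chromosome 11 and 5.5% on the other chromosomes. The highest value that stood against a 0 was 5.37 FPKM, and whether such zeros are failed estimates was not tested. Values above 0 but under 0.001 FPKM occurred at 2 far-end loci, 0.41%, and at 0.28% of the loci in the rest of the chromosome.

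Up to number 47999, numbers within the far end were listed about as densely as before it. The 8 windows from 40000 to 47999 listed 60.3 loci per 1000 numbers on average, against 55.3 in the 39 windows of the rest of the chromosome. The windows from 48000 and 49000, with 10 and 1 loci, are not in the first average. The second includes sparse windows, down to 4 loci. Locus numbers on this chromosome mostly step by 10, and 7.5% of the loci had another last digit in the far end and in the rest alike. Of these 37 far-end loci, 15 were expressed, 40.5%, against 30.7% of those at multiples of 10. In the rest of chromosome 11 the shares were 46.3% and 37.3%.

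The border of the region fell between expressed loci. LOC_Os11g39990, just outside, had 3.70 FPKM in library 1 versus 15.0 FPKM in library 2. LOC_Os11g40009, just inside, had 5.66 FPKM in library 1 versus 14.0 FPKM in library 2. Both were higher in library 2. The next locus inward, LOC_Os11g40030, had a mean of 0.515 FPKM, and LOC_Os11g39960, the next outward, was listed at 0 in both libraries.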

How the data were processed

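Per the file headers, the authors deposited 1 FPKM value per locus and library. Per the submitters' processing notes, the tool was Cufflinks. Its version, the aligner, build, annotation and strand setting were not given in the sources used here. Because FPKM is scaled by transcript length and depth, no count model was applied. Precision was judged from the spread between the 2 libraries, since depth is unknown.

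Members and lists were chosen with earlier results of these data known. The loci named are the 10 highest far-end loci, the highest of each of 10 windows of 1000 locus numbers, and the 2 loci at either extreme of the ratio between libraries among those with 5 FPKM or more on average. Loci that bound a stretch or the region, the neighbours of LOC_Os11g42500, and LOC_Os11g47500 were named after their values were seen. Ratios are library 1 over library 2 with a pseudocount of 1. No test was run, because 1 group has no contrast. The counting steps were tested on simulated data. Python 3.11.15, pandas 2.3.3, NumPy 2.4.6, SciPy 1.17.1 and matplotlib 3.10.9 were used. Thresholds, scaling, borders and comparison sets were varied.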

Additional observations from a re-analysis of the deposited data

How the results depend on the processing

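The gap in expressed loci between the far end and the rest of chromosome 11 was -6.5 percentage points and kept its sign under each alternative run, though each moved it by more than the SD between libraries. By threshold it was -1.9 (0.1 FPKM), -5.2 (0.5 FPKM), -4.2 (5 FPKM) and -8.5 points (1 FPKM in both libraries), and -5.5 after scaling each library to a sum of 1000000. By border it was -7.7 (from 39000), -6.6 (from 41000), -9.2 (from 45000) and -5.8 points (below 46000 only). It was -6.2 with the 4 left-out loci kept, -6.6 over multiples of 10, and -7.6 to -7.5 with either library left out. Against other sets it was -2.4 (inner loci of chromosome 11), -19.7 (other chromosomes), -30.5 (last loci of other chromosomes) and -29.9 points (their last 18.6% of loci). The comparisons with the inner loci and the last 18.6%, the upper border at 46000 and the removal of the 3 high loci were chosen after seeing the data.

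The difference in zeros, -1.0 points, had no stable sign. It was 1.9 for values under 0.1 FPKM, 0.047 from 39000, -4.1 from 45000 and -0.35 to 0.66 with a library left out. The log2 difference in the median of expressed loci, -0.03, was -0.84 at 0.1 FPKM, -0.25 at 5 FPKM, -0.22 from 45000 and -0.025 to 0.19 with a library left out. The share of summed FPKM, 13.3%, was 8.6% without the 5 highest loci of each part, 10.3% without the 3 high loci and 18.1% with the left-out loci, and 12.5% to 14.0% with a library left out. The loci 2-fold apart, 20 or 12.9%, were 10 with a filter at 5 FPKM, which tests fewer loci, and 4.5% with no filter, which adds loci under 1 FPKM. Spearman's rho of neighbours, 0.16, was 0.18 over loci above 0, -0.0092 for loci 2 apart, 0.094 for 3 apart, 0.017 for 5 apart and 0.17 to 0.18 with a library left out. The causes were not tested. No paired analysis was possible because both libraries form 1 group. The planned count of annotated receptor genes along the chromosome was not run, because the gene table used here holds no descriptions. Unknown depth limits what can be said under 1 FPKM.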
